A study of Mus musculus with 3 samples.

Results

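Nonproductive TRA and TRB contigs were examined in T cell receptor libraries made from CD45+ cells sorted from the sciatic nerves of neuropathic NOD.AireGW/+ mice. These animals carry a dominant mutation of Aire on the diabetes-prone NOD background and develop spontaneous autoimmune inflammation of peripheral nerves. Replicates 1 and 2 came from 1 mouse each, and replicate 3 pooled 2 mice. All 3 libraries belong to the same condition, so no treatment or genotype was compared. The methods state that female mice were used, and no age was given in the sources used here.

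A contig is a receptor transcript assembled from the reads of a single cell barcode, and its depth is given in unique molecular identifiers (UMIs), which count captured transcripts. The contigs chosen were those of called cells, with high confidence, a TRA or TRB chain, an assigned V and J gene, and no productive call. The rule found 2351 nonproductive contigs among 14693 TRA and TRB contigs of the same quality. The other 12342 were productive. There were 1537 nonproductive TRA and 814 nonproductive TRB contigs, spread over 2010 of 6634 cells. Gene expression was not analysed here, so the cells were taken as T cells from their receptor contigs alone. Doublets were not removed. Replicates 1 and 2 shared 7 cell barcodes, replicates 2 and 3 shared 3, and none of these carried the same nonproductive V-J pair in both libraries.

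A T cell receptor gene is assembled in the thymus by joining V, D and J segments at TRB and V and J segments at TRA, with bases trimmed and added at the join. Most joins shift the reading frame, and a cell that fails on one chromosome can try the other. A second productive TRB is largely prevented by allelic exclusion, whereas both TRA copies usually keep rearranging, moving outward to more distant V and J genes. A failed join remains in the DNA of all descendants, so it marks a clone independently of the receptor the cell displays, and its transcript is largely removed by nonsense-mediated decay.

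Several nonproductive junctions are shown first because they carry the results on frame and on clones. The first line is the CDR3 deposited for the silent TRB of the largest clone of replicate 1, and the capitals run from the conserved Cys codon to the conserved Phe codon, which are out of frame with each other. In the other lines the capitals mark only those codons. The TRAV6-5/TRAJ18, TRBV15/TRBJ2-3 and TRBV19/TRBJ1-2 junctions are also out of frame.
TRBV12-1/TRBJ2-4 of replicate 1: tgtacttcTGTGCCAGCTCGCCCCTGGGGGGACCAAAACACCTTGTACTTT
TRAV6-5/TRAJ18 of replicate 1: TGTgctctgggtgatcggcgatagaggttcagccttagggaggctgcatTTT
TRBV15/TRBJ2-3 of replicate 1: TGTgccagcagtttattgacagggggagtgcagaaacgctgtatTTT
TRBV19/TRBJ1-2 of replicate 2: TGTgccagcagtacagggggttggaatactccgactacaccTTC

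The next lines show TRAJ35, a J gene that was found in nonproductive contigs only. The first 2 lines are recurring in-frame junctions, and the others are the germline segments of TRAJ35 and of TRAJ49, which was used productively, both on the plus strand of GRCm38. The capitals mark the Cys codon and the Phe codon.
TRAV6-2/TRAJ35 of replicate 2: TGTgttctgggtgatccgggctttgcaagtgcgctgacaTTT
TRAV14D-1/TRAJ35 of replicate 1: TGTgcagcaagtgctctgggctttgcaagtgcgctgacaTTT
TRAJ35 at chr14:54183774-54183838: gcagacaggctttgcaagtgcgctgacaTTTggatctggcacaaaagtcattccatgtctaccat
TRAJ49 at chr14:54168686-54168747: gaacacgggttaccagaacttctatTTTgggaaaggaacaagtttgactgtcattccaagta

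Nonproductive TRA was found in more cells than nonproductive TRB in every library. Replicate 1 had 2374 cells, of which 27.8% held a nonproductive TRA (exact 95% binomial interval 26 to 29.7). The share was 18.5% of the 3555 cells of replicate 2 (17.3 to 19.9), and replicate 3 gave 18.2% of 705 (15.4 to 21.2). The mean was 21.5% ± 5.49 (SD, n = 3). Cells with a nonproductive TRB made up 14.6%, 10.4% and 9.36%, with a mean of 11.4% ± 2.79 (SD, n = 3). Replicate 1 was highest for both chains, and its intervals did not overlap those of the other libraries for either chain. These intervals cover counting error only. The shares depended on the contigs accepted: with at least 2 UMIs the means were 13.7% for TRA and 7.58% for TRB.

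Nonproductive contigs were shallow. Their median was 2 UMIs for either chain in every library, against 5, 3 and 3 UMIs for productive TRA and 7, 6 and 4 UMIs for productive TRB. A single UMI supported 30.4%, 40.0% and 46.3% of nonproductive TRA contigs in replicates 1, 2 and 3, against 8.11%, 12.6% and 21.8% of productive TRA contigs. Nonproductive contigs held 3297, 2709 and 428 UMIs in all, against 34630, 41338 and 5142 in productive contigs. This corresponded to 13.3% ± 2.08 of TRA UMIs and 4.08% ± 0.418 of TRB UMIs (SD, n = 3). The TRA share was the larger one in all 3 libraries.

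Detection of nonproductive TRA varied with depth. In replicate 1, 17.6% of cells with 1 to 3 productive TRB UMIs had a nonproductive TRA, 26.8% of those with 4 to 9, and 36.4% of those with 10 or more. Without the cells of its largest clone these shares were 19.0%, 26.3% and 32.6%. The shares were 16.8%, 18.4% and 21.1% in replicate 2, and 20.3%, 16.6% and 25% in replicate 3. The exact 95% intervals of the lowest and highest depth overlapped in replicates 2 and 3. For TRB the order was not the same between libraries, from 10.1% to 16.1% in replicate 1 and from 12.6% to 3.75% in replicate 3. A cell without a nonproductive contig may thus hold a silent allele that was not captured.

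Reading frames could be assigned to part of the junctions. A deposited CDR3 is an open frame, and its ends were matched to V and J sequence to recover the stretch from Cys to Phe. No CDR3 was given for 54.3% of nonproductive TRA contigs and 30.3% of nonproductive TRB contigs. Frames could therefore be read only where a CDR3 was deposited. The shares below are nevertheless out of all 1537 TRA and 814 TRB nonproductive contigs. The junction was out of frame in 259 TRA contigs (16.9%) and 318 TRB contigs (39.1%). It was in frame in 198 TRA contigs (12.9%) and 60 TRB contigs (7.37%), and its ends could not be placed in 118 and 110. The remaining 127 TRA and 79 TRB contigs matched the V gene, J gene and CDR3 of a productive contig of the same library. No stop codon was found in the junctions placed in frame. A deposited CDR3 is itself an open frame, so in-frame junctions with a stop codon could be among the contigs without one.

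Out-of-frame TRB junctions were unevenly distributed between libraries. They made up 51.5% of nonproductive TRB contigs in replicate 1, which holds the large clone described below, against 27.6% and 36.2% in replicates 2 and 3. Counted once per clone, with cells that lacked a productive TRA or TRB counted singly, 234 TRA and 211 TRB junctions were out of frame. Their median lengths were 41 and 43 bases from Cys to Phe. The same placement applied to the 12342 productive contigs read 12141 as in frame, 1 as out of frame and could not place 200. Full length were 209 of 259 out-of-frame TRA contigs, against 29 of 198 in-frame TRA contigs and 19 of 127 that matched a productive junction. The set holds only contigs without a productive call, so in-frame full-length contigs that were called productive are not in it. These counts therefore cannot show a relation between frame and assembly.

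**Figure D1:**
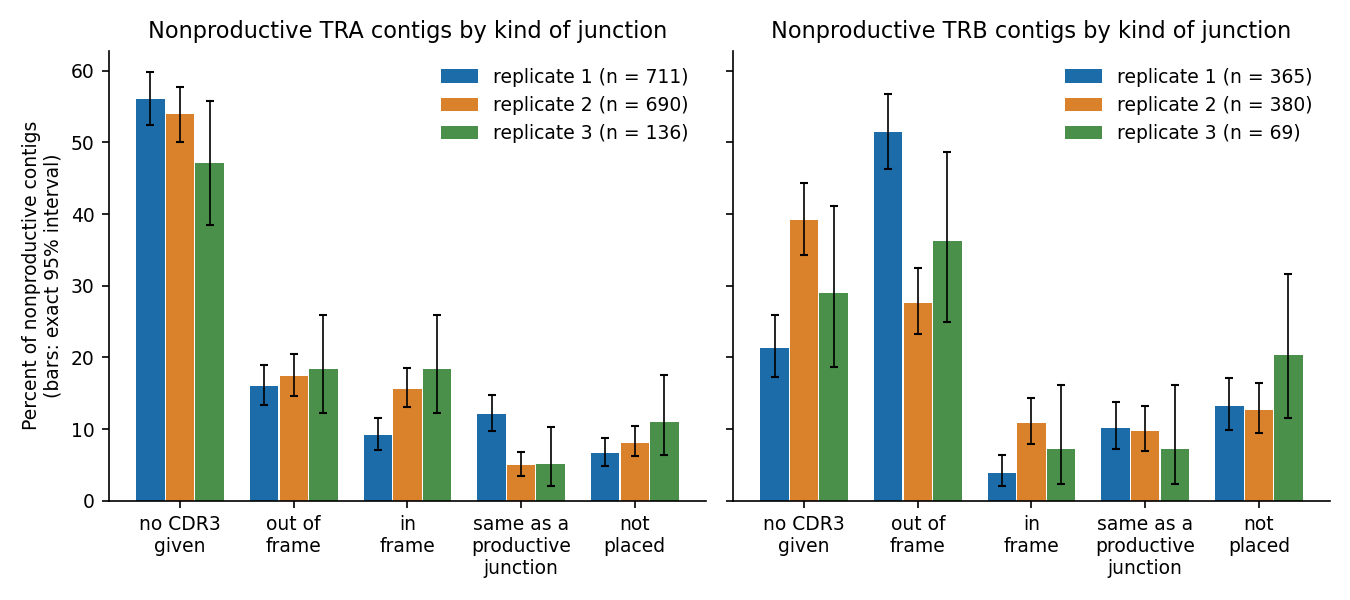
Percent of nonproductive TRA (left) and TRB (right) contigs in each kind of junction, by library, with exact 95% intervals as error bars. Contigs with no deposited CDR3 were the largest kind for TRA at 47.1% to 56.1%, whereas out-of-frame junctions led for TRB in replicates 1 and 3.

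A nonproductive TRA was found less often in cells with 2 productive TRA chains than in cells with 1. Among cells with a productive TRB and 1 productive TRA, 27.3%, 17.7% and 17.5% had a nonproductive TRA in replicates 1, 2 and 3. Among cells with 2 productive TRA the shares were 17.0% (33 of 194), 11.5% (30 of 262) and 10.0% (2 of 20). The difference was in the same direction in 3 of 3 libraries, at 10.3, 6.28 and 7.46 percentage points, with a mean of 8.01 ± 2.06 (SD, n = 3). An exact two-sided sign-flip permutation test gave p = 0.25, the smallest value that 3 libraries allow. Cells with no productive TRA had the highest shares, 40.3%, 25% and 22.5%. In replicates 1, 2 and 3, 58, 21 and 7 nonproductive contigs of cells without a productive TRA matched a productive junction of the library. Another 22, 44 and 8 such cells held a TRAJ35 contig. An incomplete contig of the expressed chain would place a cell in this group, and its part in these shares was not tested.

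For TRB the corresponding shares were close. A nonproductive TRB was found in 14.3%, 9.26% and 8.39% of cells with 1 productive TRB, and in 16.7%, 11.1% and 0% of cells with 2. The last value rests on 0 of 10 cells, which allows a share of up to 30%. The mean difference was 1.39 percentage points ± 6.07 (SD, n = 3), with its direction set by replicate 3, and p was 1 in the exact sign-flip permutation test. Without replicate 3 the difference was -2.11 points.

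Some cells held more rearrangements than 2 chromosomes provide. More than 2 TRA contigs were found in 100 of 5663 cells and more than 2 TRB contigs in 62 of 6345. All of them were cells with a nonproductive contig. No cell with a productive TRB had more than 2 productive contigs of either chain, so this follows there from the count alone. Of the 1448 cells with a nonproductive TRA, 394 (27.2%) had no productive TRA. Only 89 of the 781 cells with a nonproductive TRB (11.4%) lacked a productive TRB. Cells with both a nonproductive TRA and a nonproductive TRB numbered 130, 76 and 13, or 5.48%, 2.14% and 1.84% of cells. The products of the separate shares were 4.07%, 1.92% and 1.70%. The part of doublets and of free RNA in these counts was not tested.

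Within cells, nonproductive contigs had fewer UMIs than productive contigs of the same chain in most comparisons. For TRA, 506 cells of replicate 1 had both kinds, with medians of 2 and 6 UMIs and a median log2 ratio of -1.22. In replicate 2 the medians were 2 and 4 UMIs and the log2 ratio was -1 over 475 cells. In replicate 3 both medians were 2 UMIs and the log2 ratio was 0 over 73 cells. The mean of the library medians was -0.74 ± 0.65 (SD, n = 3; exact sign-flip permutation p = 0.5).

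The gap was wider for TRB. The median log2 ratios were -1.81 over 324 cells, -1.42 over 315 cells and -0.58 over 53 cells, with a mean of -1.27 ± 0.62 (SD, n = 3). All 3 libraries were below 0, and the exact sign-flip permutation test gave p = 0.25, the smallest possible. The nonproductive contig had fewer UMIs in 88.6%, 78.7% and 64.2% of cells for TRB, and in 76.1%, 66.9% and 45.2% for TRA. The ratio was nearest to 0 in replicate 3, where productive chains also had the fewest UMIs. Only cells in which both kinds were captured enter these ratios, so alleles with no captured transcript are left out.

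**Figure D2:**
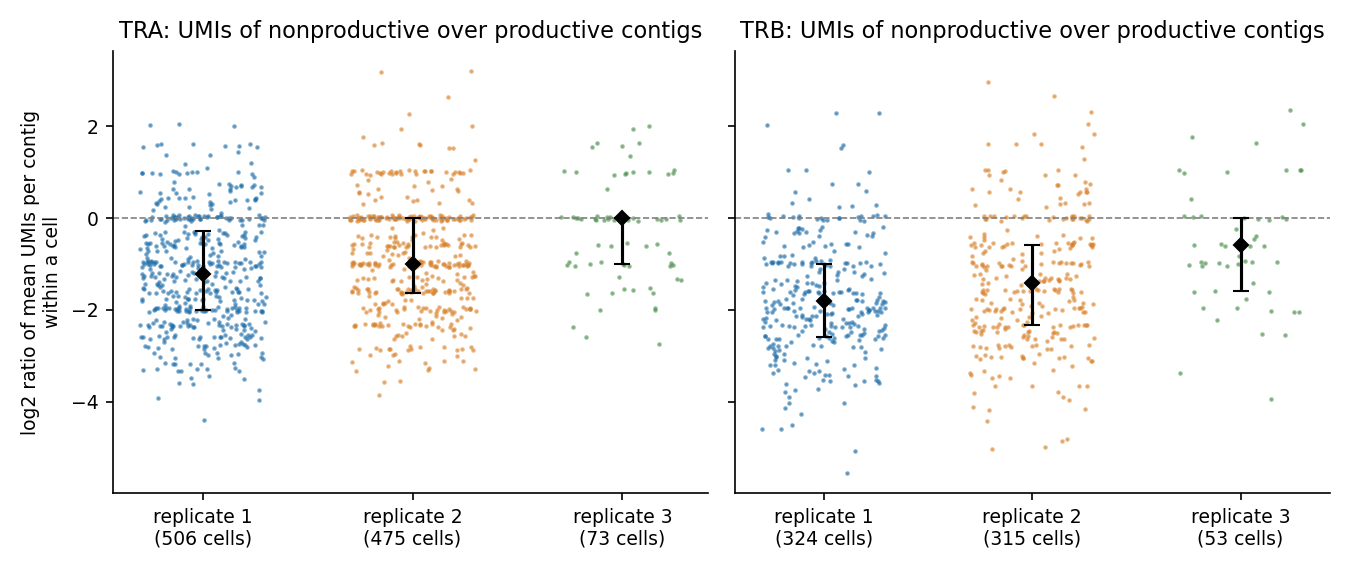
The log2 ratio of mean UMIs per contig, nonproductive over productive, in each cell with both kinds of TRA (left) or TRB (right) contig, by library, with the median and quartiles in black; points are spread slightly to separate them. The medians lie at or below 0 in each library and are lower for TRB, from -0.58 to -1.81, than for TRA, from 0 to -1.22.

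TRAJ35 was used by nonproductive TRA contigs in every library and by no productive contig. There were 135 such contigs, in 135 cells and with 37 V genes. Replicates 1, 2 and 3 held 41, 81 and 13, or 1.73%, 2.28% and 1.84% of their cells. None of the 5745 productive TRA contigs used TRAJ35, which allows a share of up to 0.0522%. None of the 135 was full length. The productive and full-length calls are those of Cell Ranger, whose version is not given in the sources used here, and whether another version would call TRAJ35 contigs the same way was not tested. Of the 135 junctions, 118 were in frame, 11 were out of frame, 3 could not be placed and 3 had no CDR3.

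TRAJ35 contigs had a higher median of UMIs than all other nonproductive TRA contigs combined. Their median was 4, 3 and 3 UMIs in replicates 1, 2 and 3, against 2 for other nonproductive TRA contigs in every library. Their median log2 UMI ratio to the productive TRA of the same cell was 0 in each library, over 19, 37 and 5 cells. No productive TRA was found in 53.7%, 54.3% and 61.5% of cells with a TRAJ35 contig, against 22.3%, 25.1% and 40.5% of cells with another nonproductive TRA, with overlapping exact 95% intervals in replicate 3. This was not particular to TRAJ35: the productive TRA was also missing beside 58.8%, 42.4% and 61.5% of the other in-frame contigs and 67.4%, 61.8% and 100% of those that matched a productive junction. In GRCm38 the stretch from the Phe codon to the end of the segment was 37 bases in TRAJ35, as in TRAJ49, and 34 bases in 40 of the 44 TRAJ genes with a recognisable motif. TRAJ49 was found in 199 productive contigs.

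V and J use was compared between nonproductive and productive contigs of the same cells. A V-J pair was counted once per clone, where a clone is the set of cells of a library with the same leading productive TRB and TRA. Cells that lacked a productive TRB or TRA belong to no clone and were counted one by one. Those without a productive TRA, 394 of the 1448 cells with a nonproductive TRA, added to the nonproductive TRA counts only. This gave 641 nonproductive and 552 productive TRBV rearrangements and 1296 and 858 TRAV rearrangements. Genes were tested with edgeR's quasi-likelihood test with the library as a block and Benjamini-Hochberg adjustment over all 132 genes with enough counts. An adjusted p under 0.05 was found for 7 of the 132 genes (5.3%), of which 4 were more frequent in nonproductive contigs (3.03%) and 3 less frequent (2.27%). TRBV genes held 5 of the calls, or 25% of the 20 tested. The minimum of 10 rearrangements was taken over both kinds together, so a gene could enter through the kind in which it was high. TRAJ35, TRBV23 and TRBV12-1 reached it only through nonproductive rearrangements, and TRBV12-2+TRBV13-2 only through productive ones. The p-values of these genes are limited by this choice. Leaving out replicate 1, 2 or 3 left 2, 0 and 0 called genes, and TRBV23 and TRBV12-2+TRBV13-2 were those called without replicate 1.

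TRBV23 had the highest log2 fold change of the TRBV genes tested. It accounted for 18, 23 and 11 nonproductive rearrangements in replicates 1, 2 and 3 against 0, 0 and 1 productive ones. This was 10.3% ± 5.34 against 0.641% ± 1.11 of rearrangements (SD, n = 3), higher in 3 of 3 libraries (adjusted p = 0.0159, edgeR). The pooled ratio was 44.8, with an exact 95% counting interval of 7.69 to 1802. Of the 63 nonproductive TRBV23 contigs, 60 were not full length, and no TRBV23 junction could be placed. The p-value of TRBV23 therefore cannot show a difference in use beyond the productive and full-length calls. In all cells 9 productive contigs used TRBV23, which lies at chr6:41216073-41216526.

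TRBV12-1 and TRBV10 were also more frequent among nonproductive TRB. TRBV12-1, at chr6:41113550-41114067, had 46, 16 and 3 nonproductive against 1, 5 and 1 productive rearrangements, a log2 fold change of 2.80 (adjusted p = 0.0159, edgeR). Replicate 1 was the highest. TRBV12-1 is the silent V gene of its largest clone, and cells with the TRB of that clone and no productive TRA were counted one by one. Without the cells of this TRB the log2 fold change was 2.24 and the adjusted p was 0.0566 (edgeR), within a range of 0.00168 to 0.665 over all alternatives. TRBV10 is annotated as a pseudogene in the mouse reference, at chr6:41091940-41092228, yet 246 productive contigs used it in these NOD mice. It had 19, 37 and 6 nonproductive against 6, 8 and 3 productive rearrangements, or 9.32% ± 1.77 against 3.79% ± 1.72 (SD, n = 3; adjusted p = 0.048, edgeR).

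The genes that were less frequent in nonproductive contigs included TRBV5 and the reference entry TRBV12-2+TRBV13-2, which names 2 neighbouring V genes together and has no coordinates here. Reads could be split between this entry and the single genes, which did not share its deficit. TRBV13-2 alone had 4, 24 and 4 nonproductive against 5, 11 and 4 productive rearrangements, and all of its 32 nonproductive contigs were not full length. TRBV12-2 alone had 6, 8 and 0 against 2, 4 and 0. In the joint entry 7 of 8 nonproductive contigs were full length. TRBV12-2+TRBV13-2 had 3, 4 and 0 nonproductive against 8, 41 and 5 productive rearrangements, lower in 3 of 3 libraries (adjusted p = 0.047, edgeR). TRBV5, at chr6:41062332-41062803, had 9, 24 and 2 against 24, 28 and 6 (log2 fold change -1.02, adjusted p = 0.048). Among 58 TRAV genes TRAV8D-2, at chr14:53042428-53042891, was the only gene called (1.72%), with 4, 7 and 1 against 14, 15 and 2 (adjusted p = 0.048). The calls of TRBV10, TRBV5 and TRAV8D-2 did not pass in most of the alternatives.

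TRAJ35 was the only one of 42 TRAJ genes called (2.38%), with 35, 65 and 12 nonproductive and no productive rearrangements. This was at least 24.8-fold higher than the limit of 3 counts over all productive rearrangements allows (adjusted p = 0.047, edgeR). TRAJ35 entered the test through its nonproductive rearrangements alone, and none of its contigs was full length. Its p-value therefore cannot show a difference in use beyond these calls. No TRBJ gene passed in edgeR or DESeq2 (0% of 12), and 1 had an unadjusted p under 0.05 in edgeR. DESeq2 called 2 of the 132 genes, TRBV23 and TRAJ35. Full-length nonproductive contigs alone, which hold no TRAJ35, gave 0 called genes in edgeR, with 18 of 121 genes under an unadjusted p of 0.05.

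Other frequent genes did not pass the test. TRAV12D-2 was the most frequent TRAV gene, with 108, 57 and 14 nonproductive against 12, 25 and 3 productive rearrangements (adjusted p = 0.305, edgeR). TRAJ16 followed TRAJ35 with 75, 12 and 0 against 5, 4 and 0 (adjusted p = 0.148), and passed only among contigs with at least 2 UMIs (adjusted p = 0.000983). Its log2 fold change was 2.44, and it was 0.39 without copies of productive junctions, 0.33 with every contig counted and 0.08 with full-length contigs. TRAV12D-2 and TRAJ16 form the productive TRA of the largest clone of replicate 1. A nonproductive contig of this TRA was found in 46 cells with the TRB of that clone and no productive TRA. These cells were counted one by one, so the counts of both genes are not all of separate clones. There were 5 TRAV genes that had 13 to 17 nonproductive rearrangements and no productive one in the same cells, TRAV6-7-DV9, TRAV13N-4, TRAV15D-1-DV6D-1, TRAV15-2-DV6-2 and TRAV13D-3 (adjusted p = 0.0609 to 0.0693, edgeR). They entered the test through their nonproductive rearrangements alone, and in all cells they had 2, 11, 29, 7 and 5 productive contigs. TRBV31, TRBV15 and TRBV19, which have 60, 56 and 63 nonproductive rearrangements, had adjusted p-values of 0.305, 0.0609 and 0.074.

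**Figure D3:**
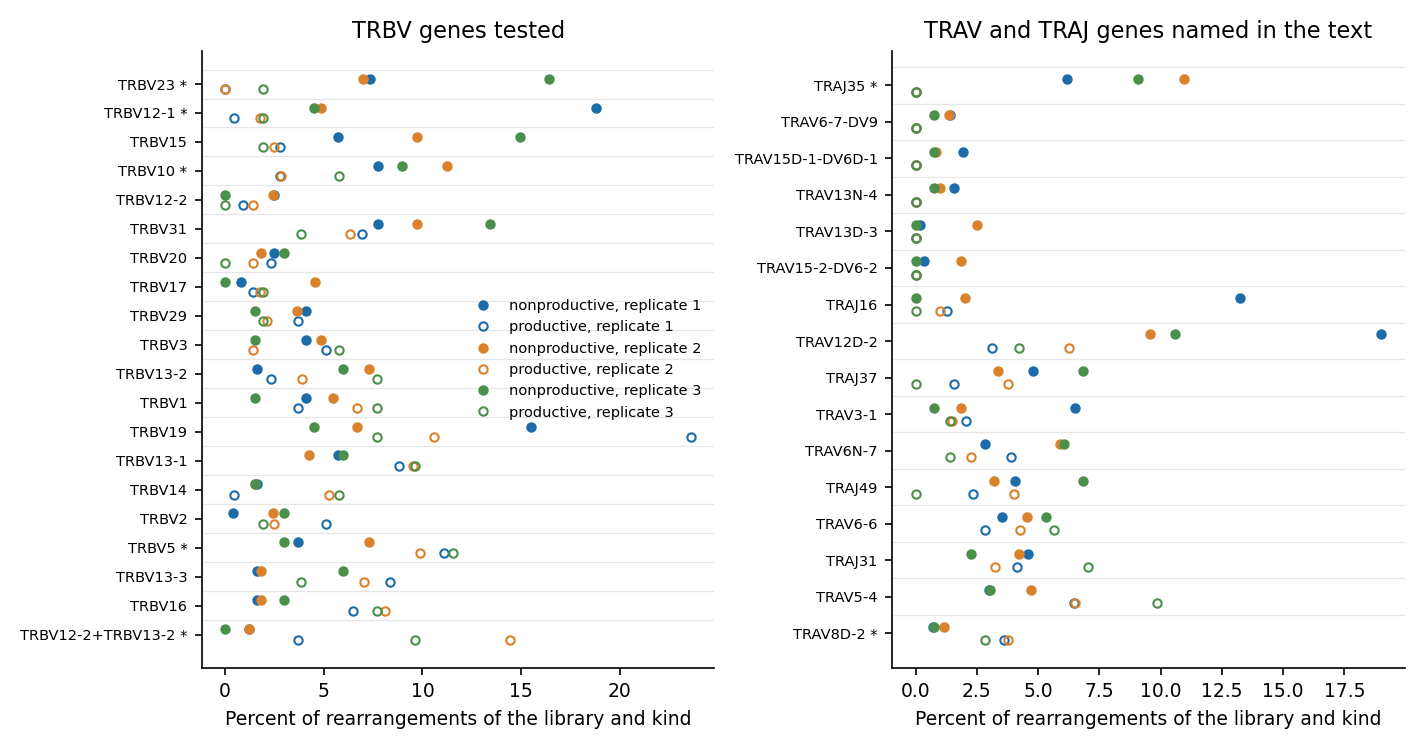
Percent of rearrangements that used each gene among nonproductive (filled) and productive (open) contigs of the same cells in each library, for the tested TRBV genes (left) and the named TRAV and TRAJ genes (right); stars mark adjusted p under 0.05 in edgeR. TRBV23 and TRAJ35 are separated from their productive values in all 3 libraries, and TRBV12-1 is highest in replicate 1.

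Position within the J cluster was related between the TRA alleles of a cell. TRAJ genes were ranked along the locus from the end nearest the V genes. Each clone with 1 productive and 1 nonproductive TRA of another V or J gave a pair of ranks. A cell without a productive TRB was taken as a clone of its own. Pearson's r over 709 clones was 0.62 and Spearman's rho was 0.62. Within libraries r was 0.60 over 312 clones, 0.62 over 331 and 0.69 over 66, and leaving out the 2 clones farthest from the median rank gave 0.61. The clones share libraries, and both ranks of a pair come from the same barcode, so these values are descriptive.

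The median distance between the alleles was 7 TRAJ genes, and 69.8% of clones were within 10. When the productive J gene ranked 4 to 22, the median nonproductive rank was 17. It was 31 for productive ranks 23 to 36 and 40 for ranks 38 to 59. The nonproductive join lay farther from the V genes in 335 clones and nearer in 338. Without TRAJ35 r was 0.63 over 680 clones. For TRB no such relation was seen between J clusters: the silent allele used TRBJ1 in 39.0% of 146 clones whose productive chain used TRBJ1 (exact 95% interval 31.1 to 47.5) and in 39.0% of 315 clones whose productive chain used TRBJ2 (33.6 to 44.7).

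**Figure D4:**
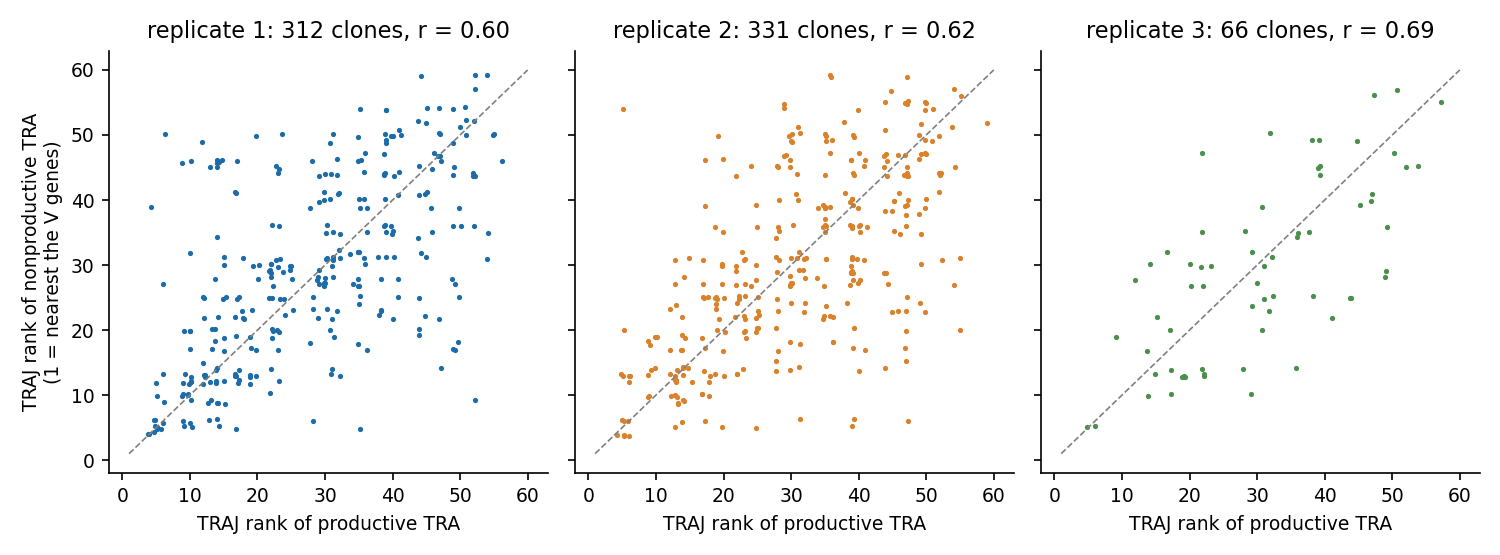
Rank of the TRAJ gene in the nonproductive TRA (vertical) against that in the productive TRA (horizontal) of the same clone, by library, with rank 1 nearest the V genes and the dashed line at equal ranks; points are spread slightly. Pearson's r was 0.60, 0.62 and 0.69 in replicates 1, 2 and 3.

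Silent alleles recurred within clones. Among pairs of cells of the same clone that both held a nonproductive TRA, 2994 of 3347 (89.5%), 328 of 352 (93.2%) and 4 of 4 shared its V and J genes in replicates 1, 2 and 3. Pairs from different clones shared them in 0.459%, 0.138% and 0.044% of cases. For TRB, 2628 of 3374 same-clone pairs (77.9%), 116 of 129 (89.9%) and 1 of 1 shared V and J, against 2.73%, 0.821% and 0.357% of pairs from different clones. Most pairs in replicate 1 came from its largest clone. Without it, 135 of 187 TRA pairs (72.2%) and 115 of 134 TRB pairs (85.8%) shared V and J.

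CDR3 bases were compared where both cells of a pair with the same V and J had a deposited CDR3. They were identical in all 218 same-clone TRA pairs and in 1996 of 2636 same-clone TRB pairs (75.7%), against 184 of 224 TRA pairs (82.1%) and 556 of 946 TRB pairs (58.8%) from different clones. The bases were compared as deposited, and the silent TRB junction of the largest clone was deposited with different starts and ends. Among its full-length TRBV12-1/TRBJ2-4 contigs, 69 had the form printed above. Another 10 held the same join from the Cys codon to bases past the Phe codon. Non-identical same-clone TRB pairs therefore need not hold different junctions. Most of the same-clone TRA pairs came from a single clone of replicate 2, which held the in-frame TRAV6-2/TRAJ35 junction described below. Without the largest clone and matches to productive junctions, the same-clone values were 218 of 218 for TRA and 123 of 123 for TRB. The TRB pairs can include those of a clone with TRBV23/TRBJ2-4 in 11 cells, whose short CDR3 is printed below. No TRBV23 junction could be placed, so identical bases there do not show a shared join. Those from different clones were then 30 of 69 (43.5%) and 56 of 199 (28.1%). All cells with a silent TRA shared a V-J pair in 64 of 85 clones with 2 or more such cells, and in 36 of 46 clones for TRB. Across libraries, 2 of 495 nonproductive TRA junctions and 0 of 349 TRB junctions were found in more than 1 library. Both shared TRA junctions used TRAJ35 and were in frame, with TRAV10D in 2 cells and TRAV5-4 in 5 cells. In the largest clone 71 of the 81 cells with a nonproductive TRB had the TRBV12-1/TRBJ2-4 pair.

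The largest clone, with 249 cells in replicate 1, carried a silent allele at both loci. Its displayed receptor was TRAV12D-2/TRAJ16 with TRBV19/TRBJ2-4. A nonproductive TRAV3-1/TRAJ17 contig was found in 76 of the 249 cells (30.5%, exact 95% interval 24.9 to 36.7) and the TRBV12-1 junction printed above in 77 (30.9%, 25.2 to 37.1). No junction could be read for the silent TRA, so it was matched by its V and J names alone. At least 1 of the silent alleles was seen in 122 cells (49%) and both in 31 (12.4%). Of 2009 cells with another TRB or none, 4 (0.199%) held the silent TRA and 12 (0.597%) the silent TRB junction. The junction was found in no barcode of replicates 2 and 3. The same bases were named TRBV12-1/TRBJ2-5 in 9 contigs, so gene names split a single junction.

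Another 115 cells of replicate 1 had the TRB of this clone and no productive TRA. In 46 of them (40.0%, exact 95% interval 31.0 to 49.6) a nonproductive contig held the exact V gene, J gene and CDR3 of the clone's productive TRA. No such contig was found in the 249 cells with the productive form, and 24 of the 2009 other cells had one (1.19%). The absence in the 249 cells was not particular to this clone. Leaving out contigs with the V and J of a cell's own productive chain kept the mean share of cells with a nonproductive TRA at 21.5%. The 249 cells are therefore no contrast to the 115. The silent TRA was found in 14 of the 115 cells and the silent TRB junction in 22. These cells had a median of 5 TRB UMIs, against 12 in cells with both chains. In all libraries, 86 of 127 nonproductive TRA contigs with a productive junction lay in cells without a productive TRA, and in 86 the leading TRB was one found with that productive TRA. Their median length was 483 bases, against 552 bases for productive TRA contigs, and 108 of 127 were not full length.

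Other expanded clones had their own recurring nonproductive pairs. Over all clones, 47 of 75 TRA pairs and 18 of 43 TRB pairs found in 2 or more cells had no deposited CDR3. Those pairs are called silent alleles from their V and J names alone. In replicate 1 the clone of 20 cells with TRAV3-3/TRAJ17 and TRBV13-3/TRBJ1-4 had a silent TRBV23/TRBJ2-4 in 11 cells (55.0%) and a silent TRAV15D-1-DV6D-1/TRAJ31 in 9 (45.0%). Its deposited TRBV23 CDR3 was short, with the Cys codon in capitals.
TRBV23/TRBJ2-4 of replicate 1: TGTgccagcagtctgtttcag
The second largest clone of replicate 1, with 21 cells and TRAV7D-2/TRAJ47 with TRBV3/TRBJ2-5, had a silent TRAV16N/TRAJ37 in 2 cells. In the clone of 7 cells with TRAV10D/TRAJ23 and TRBV15/TRBJ2-1, the out-of-frame TRAV6-5/TRAJ18 junction was found in 6.

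In replicate 2 the largest clone, with 49 cells and TRAV3-3/TRAJ34 with TRBV5/TRBJ2-1, had a silent TRAV13D-3/TRAJ33 in 12 cells (24.5%) and no nonproductive TRB, which allows a share of up to 6.12%. The clone of 38 cells with TRAV6-2/TRAJ45 and TRBV12-2/TRBJ2-7 had a silent TRAV5-4/TRAJ43 in 5 cells, and the clone of 34 cells with TRAV5-4/TRAJ48 and TRBV1/TRBJ1-1 a silent TRAV6D-7/TRAJ48 in 2. Neither had a nonproductive TRB. The clone of 28 cells with TRAV14D-1/TRAJ23 and TRBV20/TRBJ2-7 had a silent TRAV12D-2/TRAJ33 in 8 (28.6%), and the clone of 20 cells with TRAV6-2/TRAJ40 and TRBV14/TRBJ2-7 a silent TRAV5-4/TRAJ32 in 5 (25%). The clone of 27 cells with TRAV6-6/TRAJ39 and TRBV5/TRBJ2-7 had a silent TRBV10/TRBJ1-4 in 10 (37.0%). In replicate 3 the 3 largest clones had 9, 6 and 5 cells, and a single cell among them held a nonproductive contig, TRAV4-3/TRAJ39.

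TRAJ35 joins recurred in expanded clones with as many UMIs as the productive TRA. In the clone of 18 cells of replicate 2 with TRAV5-4/TRAJ32 and TRBV19/TRBJ2-1, the in-frame TRAV6-2/TRAJ35 junction was found in 17 cells (94.4%, exact 95% interval 72.7 to 99.9), with identical bases in all 17. Its UMIs summed over the clone were 1.01 times those of the productive TRA. In the clone of 7 cells of replicate 1 with TRAV14D-2/TRAJ13 and TRBV13-3/TRBJ2-3, TRAV14D-1/TRAJ35 was found in 6 cells at a ratio of 1.27. The other 16 recurring pairs found in 5 or more cells of a clone had ratios from 0.048 to 0.551. In smaller clones some other pairs also exceeded 1, such as TRAV4-2/TRAJ37 at 1.88 in 4 of 4 cells of a clone of replicate 1 and TRAV6-6/TRAJ18 at 1.5 in 4 of 4 cells of a clone of replicate 2. Over all pairs found in 2 or more cells of a clone, the median ratio was 0.182 for 75 TRA pairs and 0.154 for 43 TRB pairs. Counting every cell of the clone, these ratios include cells in which the silent transcript was not captured.

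**Figure D5:**
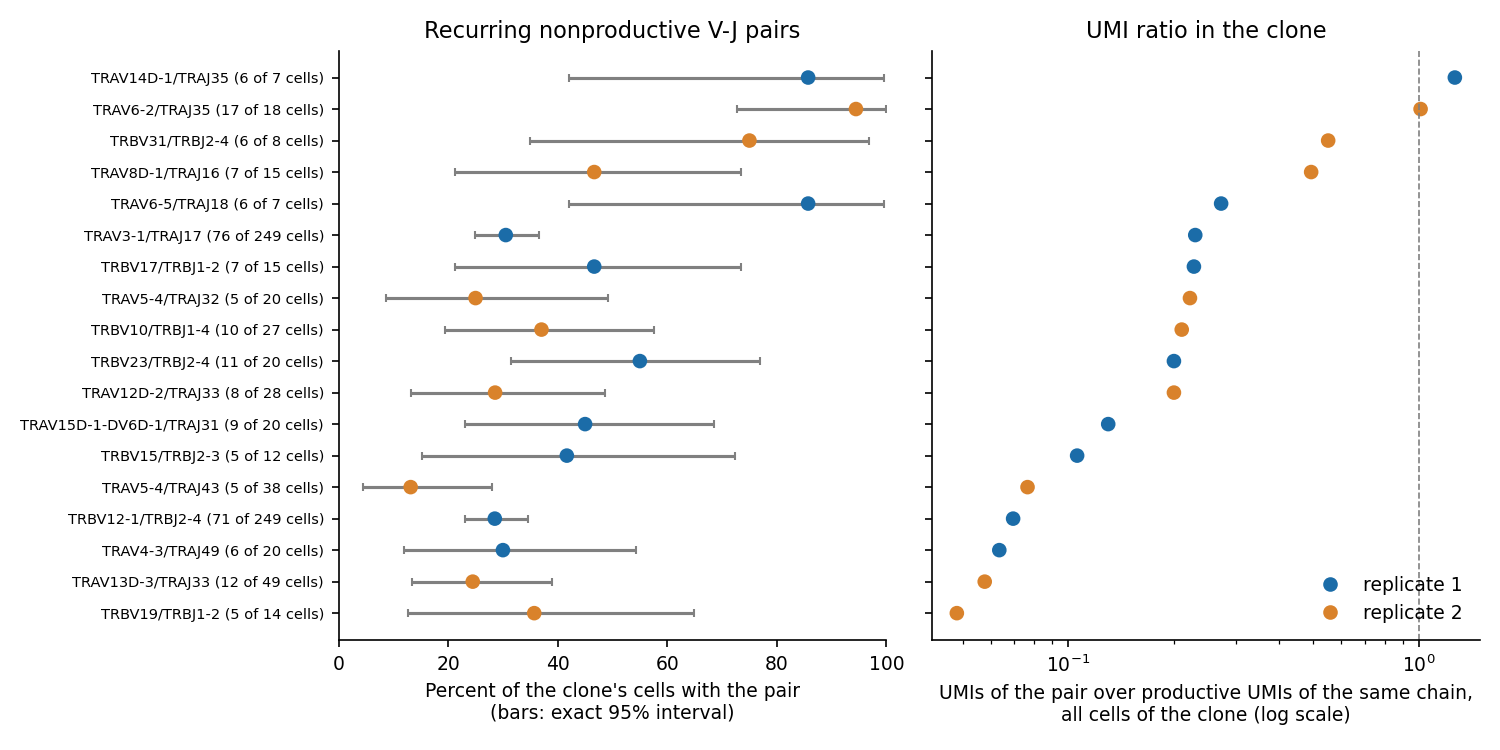
The 18 nonproductive V-J pairs found in 5 or more cells of a clone, in order of the UMI ratio: percent of the clone's cells with the pair and exact 95% interval (left) and the pair's UMIs over the productive UMIs of the same chain, summed over the clone, on a log axis (right). Both TRAJ35 pairs lie above a ratio of 1, and the others between 0.048 and 0.551.

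A few nonproductive contigs joined segments of different loci. There were 5 such contigs in 4 cells, and no productive contig joined TRA with TRB segments. In 4 contigs, the join had a V gene of TRA with a J gene of TRB and the TRBC2 constant region, at 22, 18, 10 and 1 UMIs, and the remaining contig had TRBV3 with TRAJ24 and TRAC at 4 UMIs. The contigs with 22, 18, 10 and 4 UMIs had in-frame junctions and were full length. They are printed because both sides of each join can be read in the bases, with the Cys and Phe codons in capitals.
TRAV14-1/TRBJ2-1 of replicate 1: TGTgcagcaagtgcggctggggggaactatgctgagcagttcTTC
TRAV14D-1/TRBJ2-7 of replicate 2: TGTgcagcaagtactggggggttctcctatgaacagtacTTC
TRBV3/TRAJ24 of replicate 2: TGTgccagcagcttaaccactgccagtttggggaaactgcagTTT
TRAV15D-1-DV6D-1/TRBJ2-7 of replicate 2: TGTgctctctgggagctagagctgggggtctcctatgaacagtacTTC

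TRAV14D-1/TRBJ2-7 and TRBV3/TRAJ24 came from the same cell, which had a productive TRAV12D-2/TRAJ12 with 9 UMIs and no productive TRB. The cell with TRAV14-1/TRBJ2-1 had a productive TRAV9-2/TRAJ31 with 5 UMIs and likewise no productive TRB. The cell with TRAV15D-1-DV6D-1/TRBJ2-7 had both productive chains, with 5 TRA and 7 TRB UMIs. The contig with 1 UMI, TRAV3-1/TRBJ2-4, lay in a cell with the TRBV19/TRBJ2-4 chain. With 4 cells no test was possible, and chimeric molecules made during amplification were not tested.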

How the data were processed

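CD45+ cells of 3 libraries were profiled with the 10x Genomics V(D)J assay. Per the labels and methods, the authors processed reads with Cell Ranger against mm10, with no version given in the sources used here. The deposited contig tables give counts of reads and UMIs per contig, the contig length, and productive and full-length calls; nothing was normalized. The other deposited tables were not used. The members, gene lists and tests were chosen with earlier results of these data known. Genes named are the 5 most frequent of each segment among nonproductive rearrangements, those called in the same direction in every library and V genes without productive rearrangements; clones named are the 3 largest of each library and those with the most recurrent pair.

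CDR3 ends were placed in V and J sequence from productive contigs by a unique longest match of at least 6 bases (germline J from GRCm38, GENCODE M21, where no productive contig existed). Gene use was tested in edgeR 4.0.16 (R 4.3.3) on genes with at least 10 rearrangements, with column totals as library sizes, and in DESeq2 1.42.0; intervals and exact permutation tests used scipy 1.17.1. The placement of CDR3 ends and the edgeR fit were tested on simulated data, and the other steps were not. Productive TRA and TRB contigs held 34630, 41338 and 5142 UMIs in replicates 1, 2 and 3. Alternatives were the UMI minimum, full-length contigs, another clone definition or counting unit, left-out copies, clones, genes and libraries, TMM scaling, no filter and no library block. P-values measure the spread between 3 libraries, 1 of them pooled.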

Additional observations from a re-analysis of the deposited data

Results flagged for a closer look

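Some contigs lay outside the rule and enter no comparison above, on barcodes not called cells and in the TRD locus. The silent TRB junction of the largest clone of replicate 1 was found on 267 barcodes not called cells, with a median of 1 UMI, beside 111 called cells with a median of 3. Its silent TRAV3-1/TRAJ17 pair was found on 137 barcodes not called cells, beside 94 called cells. The file lists 14343 barcodes not called cells in that library. TRD contigs with a V and a J gene were found in 50 cells of replicate 1, 50 cells of replicate 2 and 24 cells of replicate 3, or 2.11%, 1.41% and 3.40% of cells. All of these joined a TRD V gene to a TRAJ gene, and none was productive. There is no control sample for these counts, so they are given as values only.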

How the results depend on the processing

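The share of cells with a nonproductive contig, 29.8% on average, was 19.6% with at least 2 UMIs (TRA 13.7%, TRB 7.58%) and 20.6% with full-length contigs only (TRA 15.3%, TRB 6.68%). Same-clone TRA pairs with the same V and J averaged 82.4% with the productive TRB alone as clone, where replicate 1 fell from 89.5% to 56.7% (5245 of 9248 pairs) and all pairs pooled from 89.8% to 58.8%, and 88.5% without the largest clone. The difference in nonproductive TRB between cells with 1 and 2 productive TRB reversed to -0.873 points with at least 2 UMIs and -0.761 with full-length contigs, and ranged from -2.11 to 3.29 when a library was left out. The TRAJ correlation was 0.673 with full-length contigs.

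The 7 genes called became 4 with at least 2 UMIs, 0 with full-length contigs, 3 without copies of productive junctions, 3 without the largest clone, 2 without TRAJ35, 11 with TMM and 2 with DESeq2, and 0 to 2 with a library left out. Where edgeR called 0 genes, without replicate 2, without replicate 3 and with full-length contigs, 10, 21 and 18 had an unadjusted p under 0.05. TMM moved the median log2 fold change from -0.04 to 0.17, and the share of calls that were higher from 57.1% to 90.9%. With no replicate block, 8 genes were called, 5 of them shared with the fit that has the library as a block. The settings without copies, the largest clone or TRAJ35, and the count of a V-J pair once per productive TRB, were chosen after seeing the data.

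Among genes that did not pass, TRAJ31 (log2 -0.05) reversed to 0.30 with at least 2 UMIs, 0.15 with full-length contigs, 0.042 without the largest clone, 0.027 without TRAJ35, 0.17 with every contig counted, 0.22 with TMM and 0.0025 with DESeq2, and ranged from -0.36 to 0.26 with a library left out. TRBJ1-4 (log2 0.00031) reversed to -0.24 with at least 2 UMIs, -0.00023 without copies of a cell's own chain, -0.043 without the largest clone, -0.046 with every contig counted, -0.15 with DESeq2 and -0.040 with no replicate block, and ranged from -0.73 to 0.58 with a library left out. TRAV12D-2 was -0.18 with full-length contigs. With a library left out TRBJ1-1 ranged from -0.30 to 0.41, TRBJ2-1 from -0.38 to 0.045 and TRBJ2-4 from -0.23 to 0.83. The causes were not tested. The other values kept their direction. Contigs with 1 UMI and cells with few UMIs limit all shares, since a silent allele that was not captured cannot be told from one that is absent.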
